A study of Mus musculus with 14 samples.

Results

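The genes described here are 32 members of the glucose-to-lactate pathway and of the hypoxia response: 2 carriers that take up glucose or export lactate, 8 enzymes of the upper and 6 of the lower part of glycolysis, 2 enzymes that set fructose 2,6-bisphosphate, 1 kinase that controls the use of pyruvate, 3 genes of oxygen sensing and 10 targets of hypoxia-inducible factor 1 (HIF1). They were picked by gene symbol from the 19940 genes of the processed table, and all 32 were among the 12096 genes tested. Their levels were followed over 14 RNA sequencing libraries of macrophages sorted from mouse central nervous system tissue at peak disease in experimental autoimmune encephalomyelitis (EAE), an autoimmune model of multiple sclerosis. The 7 mCAT libraries came from donor cells with the CD45.2 marker whose titles give CCR2creERT2/+ and mcat lsl/wt, that is 1 allele with a tamoxifen-dependent recombinase at Ccr2, a monocyte chemokine receptor gene, and 1 allele of a mitochondria-directed catalase that is silent until recombination. The 7 wt libraries came from wild-type donor cells with the CD45.1 marker. Both donors' cells were taken from the same kind of host, a lethally irradiated mouse given equal parts of the 2 bone marrows, and tamoxifen is named for all 14 libraries. Recombination is therefore limited to cells that expressed Ccr2 when tamoxifen acted, and radioresistant host cells may remain beside the donor cells. The labels state neither age nor strain, nor how many hosts were used. Genotype also runs with the CD45 allele and with the recombinase allele, so these cannot be told apart.

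Glycolysis breaks glucose down to pyruvate in the cytosol, and pyruvate is then either reduced to lactate or burned in mitochondria. HIF1 is the main switch between these fates. Its alpha subunit, Hif1a, is marked for destruction by prolyl hydroxylases that need oxygen, so most of its control acts on the protein and is not seen in its transcript. Low oxygen, inflammatory stimuli and mitochondrial reactive oxygen species are known to stabilise it, and inflammatory macrophages are known for high glycolysis. Many glycolytic genes carry HIF-binding DNA elements with the core letters ACGTG or GCGTG near their start sites.

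The promoters of 5 members that recur below are shown, since the genes differ in how many of these core letters they hold. Each window runs from 250 bases before to 50 bases after a RefSeq start site on build GRCm38.p6, which is not the build GRCm39 of the deposited values. The letters are given 5′ to 3′ on the strand of the gene, and capitals mark ACGTG or GCGTG on either strand (CACGT and CACGC are the same letters read from the other strand). The windows are those of Pfkp (chr13:6648722-6649021, minus strand), Egln3 (chr12:54203825-54204124, minus strand), Ldha (chr7:46845554-46845853, plus strand), Slc2a1 (chr4:119108495-119108794, plus strand) and Ankrd37 (chr8:45999801-46000100, minus strand).
Pfkp: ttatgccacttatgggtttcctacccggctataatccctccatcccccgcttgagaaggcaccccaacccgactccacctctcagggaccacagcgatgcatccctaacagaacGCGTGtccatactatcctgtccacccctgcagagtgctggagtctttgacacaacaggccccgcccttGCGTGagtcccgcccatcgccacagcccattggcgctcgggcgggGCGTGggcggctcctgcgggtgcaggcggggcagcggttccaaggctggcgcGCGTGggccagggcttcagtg
Egln3: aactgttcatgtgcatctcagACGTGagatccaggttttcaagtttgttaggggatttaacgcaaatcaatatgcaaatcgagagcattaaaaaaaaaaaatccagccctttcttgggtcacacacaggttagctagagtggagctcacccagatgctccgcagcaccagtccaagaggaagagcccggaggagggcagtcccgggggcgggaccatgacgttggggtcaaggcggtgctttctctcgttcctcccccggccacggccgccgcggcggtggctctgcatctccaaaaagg
Ldha: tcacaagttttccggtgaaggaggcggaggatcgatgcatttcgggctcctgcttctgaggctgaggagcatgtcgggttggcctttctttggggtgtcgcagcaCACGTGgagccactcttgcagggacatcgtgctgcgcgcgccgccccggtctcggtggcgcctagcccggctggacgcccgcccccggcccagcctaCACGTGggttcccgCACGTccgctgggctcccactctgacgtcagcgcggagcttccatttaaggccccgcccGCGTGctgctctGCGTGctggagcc
Slc2a1: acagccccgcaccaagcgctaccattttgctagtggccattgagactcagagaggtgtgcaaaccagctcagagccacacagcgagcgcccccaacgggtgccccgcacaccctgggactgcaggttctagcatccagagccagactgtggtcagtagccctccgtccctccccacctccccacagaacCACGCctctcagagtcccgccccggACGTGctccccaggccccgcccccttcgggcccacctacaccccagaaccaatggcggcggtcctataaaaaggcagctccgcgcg
Ankrd37: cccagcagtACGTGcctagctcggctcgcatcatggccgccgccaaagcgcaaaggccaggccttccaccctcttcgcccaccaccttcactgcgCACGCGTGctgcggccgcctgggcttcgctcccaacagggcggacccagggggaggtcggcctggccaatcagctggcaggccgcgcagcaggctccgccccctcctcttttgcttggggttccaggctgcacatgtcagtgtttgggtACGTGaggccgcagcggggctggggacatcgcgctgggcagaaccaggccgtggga
Counted on both strands, the Pfkp window held 4 matches, Egln3 1, Ldha 7, Slc2a1 2 and Ankrd37 4. Ldha has another window (chr7:46846832-46847131, plus strand), which is not shown and held 2 matches. CACGTG holds the letters on both strands and counts as 2 matches, and neighbouring matches may overlap. Of the 30 members with a window, 28 (93.33%) had a match in at least 1 window, and Gpi1 and Tpi1 had none. Of all 27025 genes with a window 46.73% had a match. Counted by window, 33 of 42 (78.57%) member windows and 43.77% of all 32851 windows held one. The member windows were richer in G and C, at a median of 64.0% against 52.7% over all windows, and the letters searched contain the pair CG. Ndrg1 and Bnip3l were not in the sequence table. A match is a description of letters and not a bound site.

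The sorted cells had the transcripts of macrophages. All 9 macrophage markers on the list used passed the filter for testing. So did the 6 T cell markers in the table and the 4 B cell markers, but at far lower sums. Lyz2, the lysozyme gene, alone took 1.70% to 9.68% of all normalised counts of a library. Estimated depth was 27.6 to 47.01 M reads (M for mega) for the mCAT cells and 16.69 to 43.42 M for the wt cells, the lowest being wt 7, and depth covers counting error only. Cat, the mouse catalase gene, stood at 2831 ± 808 normalised counts in mCAT and 2155 ± 626 in wt libraries (mean ± SD, n = 7 each, adjusted p = 0.878, limma without pairing). It was higher in mCAT in 6 of the 6 pairs described below (adjusted p = 0.385, limma with pairing). The labels do not name the species of the transgenic catalase. A normalised count is a deposited log2-scale value turned back to a count scaled between libraries. Each library has a code that starts with C1 or C2, and libraries that also share the next number have a common stem. In 6 stems 1 mCAT and 1 wt library share the stem, while wt 1 (C1_1) and mCAT 3 (C1_4) have no partner. The meaning of C1, C2 and the stem is not stated. Over all genes tested, libraries of 1 stem deviated together from their group means (Pearson r of 0.232 to 0.659 over 6 pairs), so the stem was used to pair them. Partners also share a prefix, so a difference between prefixes adds to this r. The non-partners mCAT 3 and wt 3, both of C1, reached 0.252. The check therefore does not show that stems are matched samples. Libraries mCAT 6 and wt 6, mCAT 7 and wt 7, and wt 1 stand apart in several members, and values without them are given beside several results.

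Enzymes of the glycolytic chain were the most abundant members, and 1 hormone gene was the least. On the scale of normalised counts per kilobase of transcript, Gapdh, which oxidises glyceraldehyde 3-phosphate, led with 92659 ± 16888 (mean ± SD over 14 libraries). It was followed by the aldolase gene Aldoa at 73629.9 ± 10891, the enolase gene Eno1 at 68823 ± 18652 and the lactate dehydrogenase gene Ldha at 63909 ± 18122 per kilobase. Aldoa, Eno1, Ldha and the pyruvate kinase gene Pkm, at 54076 ± 13607, each differed from the next by less than their SDs over the libraries, while Gapdh stood above Aldoa by more than either SD. Mif, which encodes a cytokine with macrophage-directed action, reached 42024 ± 7589 and so lay among the enzymes. At the other end were Vegfa, the vascular growth factor gene, at 244 ± 155 and Kdm3a at 219 ± 69.2 per kilobase. Below them were the oxygen sensor gene Egln1 at 112 ± 40.4 and Adm, which encodes the peptide adrenomedullin, at 27.9 ± 15.6 per kilobase. Adm ranged from 5.28 to 73.7 normalised counts over the libraries, where the log2-like scale compresses differences. Of the hexokinases, which start glycolysis, Hk3 was the most abundant per kilobase in every library, at 3.57 (wt 1) to 11.8 (mCAT 1) times the level of Hk2. Of the phosphofructokinase subunits, Pfkl exceeded Pfkp per kilobase in all libraries but wt 1 and wt 4, and the ratio of Pfkp to Pfkl was highest in wt 1, at 1.46.

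**Figure D1:**
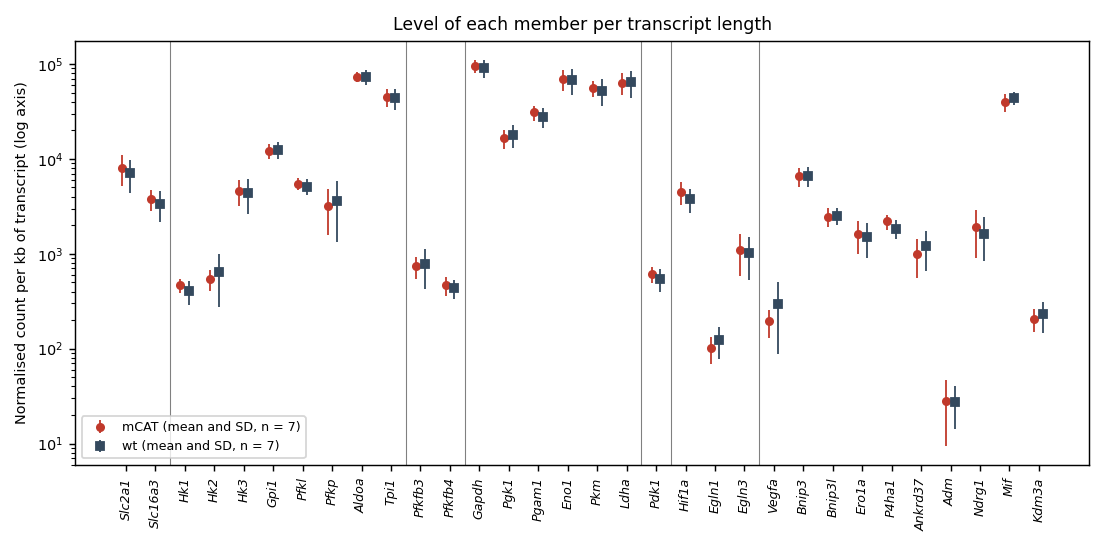
Level of each of the 32 genes in normalised counts per kilobase of transcript (log axis), as mean and SD of 7 mCAT (circles) and 7 wt libraries (squares), with vertical lines between roles. Gapdh, Aldoa, Eno1, Ldha and Pkm are at the top, Adm is at the bottom, and the SDs of the genotypes overlap for every gene.

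The counting of some members is uncertain. Libraries were not stranded, and Ankrd37 shares exon sequence with Ufsp2 on the opposite strand, which had 2393 normalised counts on average, 236% of those of Ankrd37. Pfkp shares exon sequence with Pitrm1 on the opposite strand, whose mean was 8.07% of that of Pfkp. In total 13 members overlap exons of another annotated gene, and 6 of them have such a partner in the table. Near-identical copies (at least 95% identity over at least 300 bases) exist for 13 members, mostly pseudogenes. The pseudogene with the largest share, Gm10359, had 0.917% of the counts of Gapdh, and Eno1b had 0.266% of those of Eno1.

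The members varied more between code stems than between partners of 1 stem. Over the 32 genes, the median difference between the mCAT and wt partners of a stem, regardless of sign, was 0.158 on the log2 scale, while the SD of the stem means had a median of 0.407. Over all genes tested these were 0.192 and 0.273, and over the 684 genes with a mean within 2 times that of the median member 0.161 and 0.307. The SD of the stem means exceeded the partner difference in 93.75% of the members, 73.8% of all genes tested and 89.2% of the genes of like abundance. Stem C2_2 (mCAT 6 and wt 6) was the lowest of the 8 stems for 22 of the 32 members, against 12.6% of all genes tested, and C2_4 (mCAT 7 and wt 7) was the second lowest for 17. Stem C1_5 (mCAT 4 and wt 4) was the highest for 12 members, against 11.3% of all genes. The single library wt 1 of C1_1 was the highest stem for 9 of the 32, near the 26.9% of all genes.

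Library wt 6 had the lowest level of 20 of the 32 members, against 9.23% of all genes tested, and its partner mCAT 6 of 4 more. The median deviation of the members from their means over the 14 libraries was -0.51 in mCAT 6 and -0.70 in wt 6 on the log2 scale, and -0.17 in mCAT 7 and -0.20 in wt 7. In stem C1_5 it was 0.35 in mCAT 4 and 0.36 in wt 4, while the median deviation of all genes tested was within 0.01 of 0 in each of these libraries. The 14 glycolytic enzymes together took 1.53% of all normalised counts in mCAT 6 and 1.32% in wt 6, and 1.83% in mCAT 7 and 1.67% in wt 7. In the other 10 libraries their share was 2.33% (mCAT 5) to 2.94% (wt 4), with no overlap. For 8 members all 4 libraries of C2_2 and C2_4 lay below the other 10, which was so for 4.41% of all genes tested. They were Hk3, Pfkp, Gapdh, Eno1, Ldha, Egln3, Ankrd37 and Ndrg1. In bulk RNA, fewer cells of one state and less RNA per cell cannot be told apart.

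**Figure D2:**
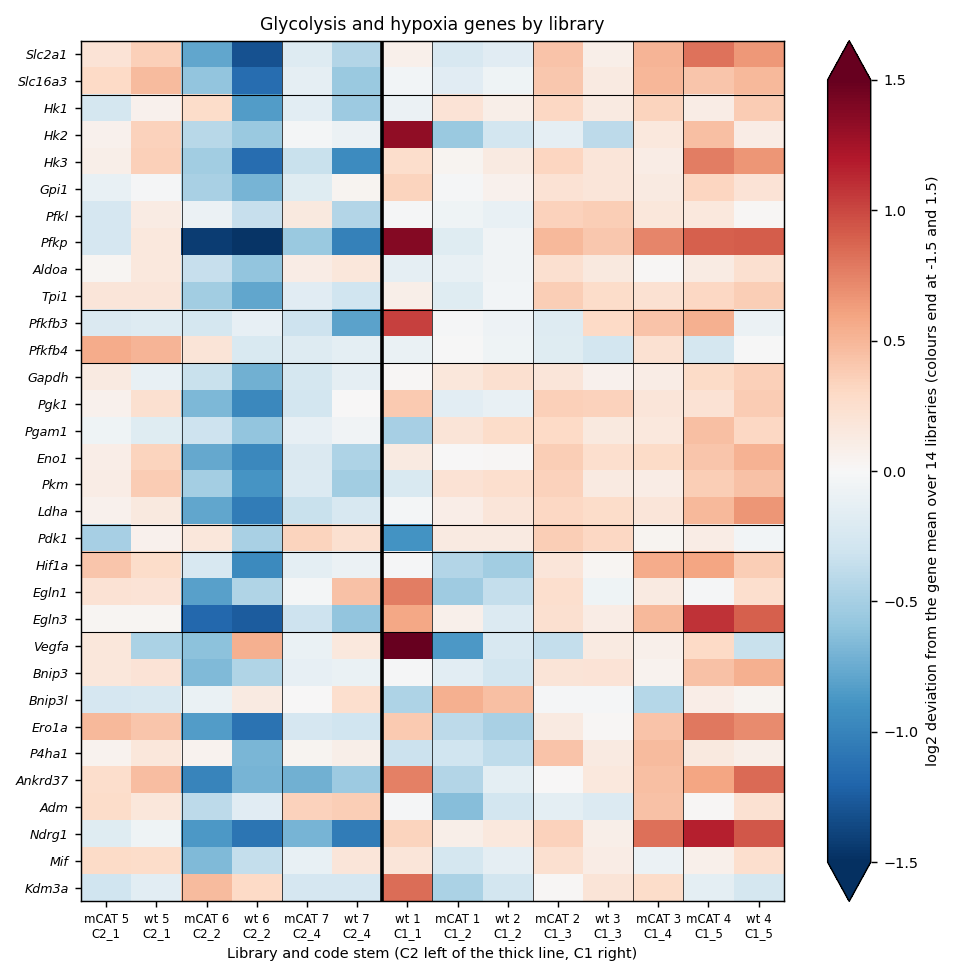
Deviation of each gene (rows, grouped by role) from its mean over 14 libraries on the log2 scale, with libraries ordered by code stem and C2 left of the thick line. Columns mCAT 6 and wt 6 (C2_2) are blue for most genes, columns mCAT 4 and wt 4 (C1_5) are red for most genes, and partners of a stem look alike; wt 1 is high for Hk2, Pfkp, Pfkfb3, Vegfa and Kdm3a and low for Pdk1.

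The study asked how macrophages with a mitochondrial catalase differ from wild-type macrophages in the same inflamed tissue, and for these genes no difference between genotypes was called. None of the 32 members passed an adjusted p of 0.05 between mCAT and wt in limma, with or without pairing by stem, and none had groups that did not overlap, which was so for 0.24% of all genes tested. Without pairing, 24 of the 12096 genes tested were called (0.198%), and 0 members had an unadjusted p under 0.05, against 5.37% of all genes. With the stem as a block, 38 genes were called (0.314%), and 2 members had an unadjusted p under 0.05, against 9.24% of all genes. Of the 32 differences 19 were above 0, with a median of 0.06, and over all genes the median was -0.00. In the paired fit 20 were above 0 and the median was 0.05. The direction turned on single libraries: unpaired, 10 were above 0 with a median of -0.06 without wt 6, 15 with a median of -0.02 without mCAT 4, and 25 with a median of 0.15 without mCAT 6. In the paired fit without stem C2_2, 17 were above 0 and the median was 0.01.

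Pairing gave narrower intervals. The median SE of the members was 0.208 without and 0.0942 with pairing. The paired 95% interval lay within 0.5 log2 units of 0 for 30 of the 32 members, and for 11 without pairing; Hk1 and Vegfa were the 2 outside. Across all members the paired intervals reached from -0.64 to 0.52, the lower bound of Vegfa and the upper bound of Hk1. A p that misses the threshold does not show that the genotypes are alike.

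**Figure D3:**
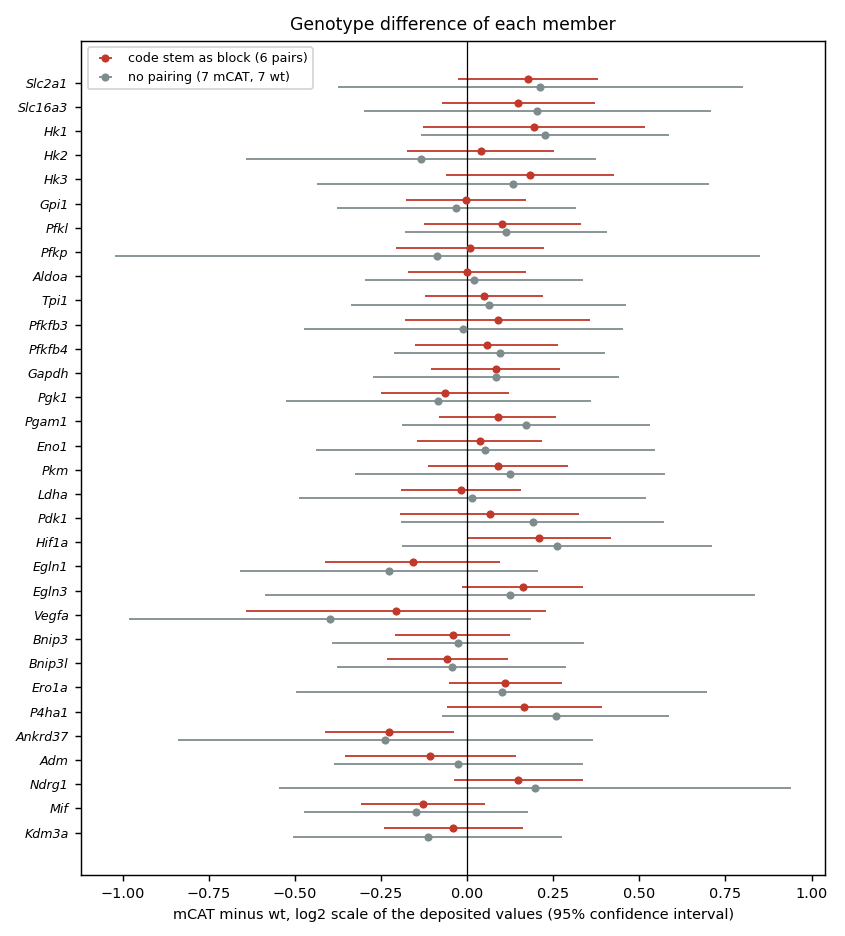
Difference of mCAT minus wt for each gene on the log2 scale with its 95% confidence interval, with the code stem as a block (red, 6 pairs) and without pairing (grey, 7 mCAT and 7 wt libraries). All unpaired intervals include 0, and the paired intervals are narrower; those of Hif1a and Ankrd37 touch or leave 0 before adjustment for the 12096 genes tested.

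Among the carriers, the glucose transporter gene Slc2a1 (ENSMUSG00000028645, chromosome 4) stood between 13284 and 40312 normalised counts in mCAT libraries (median 26449) and between 9218 and 35998 in wt libraries (median 24076). The genotypes overlapped over most of their range, and mCAT was higher in 4 of 6 pairs. Its paired difference was 0.18 (SE 0.0949, adjusted p = 0.592), with an interval of -0.03 to 0.38, and 0.11 without stem C2_2. Slc16a3, which exports lactate, was higher in mCAT in 3 of 6 pairs, with a paired difference of 0.15 (SE 0.103, adjusted p = 0.656). Without stem C2_2 it was 0.07.

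The upper glycolytic enzymes had paired differences of -0.00 to 0.19, none called. Hk1 (ENSMUSG00000037012, chromosome 10), the widely expressed hexokinase, stood between 1476 and 2305 normalised counts in mCAT libraries (median 2089.6) and between 958 and 2385 in wt libraries (median 1889). Its partners disagreed most in stem C2_2, with 2206 in mCAT 6 and 958 in wt 6, and the difference was 0.23 (SE 0.17, adjusted p = 0.878) without pairing. Without stem C2_2 its paired difference was 0.01. Pfkp, the platelet-type phosphofructokinase subunit, had a wide unpaired interval of -1.02 to 0.85, and its level varied between stems. Paired, the interval was -0.21 to 0.22, around a difference of 0.01. The aldolase gene Aldoa was also level between partners, at -0.00 (SE 0.0798, adjusted p = 0.997).

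The 6 lower enzymes from Gapdh to Ldha had paired differences of -0.06 (Pgk1, phosphoglycerate kinase) to 0.09, again with none called. Ldha (ENSMUSG00000063229, chromosome 7), which turns pyruvate into lactate, stood between 64809 and 156175 normalised counts in mCAT libraries (median 118674) and between 53669.8 and 175505 in wt libraries (median 122757). The groups overlapped over most of their range, and mCAT was higher in 2 of 6 pairs. The paired interval of Ldha was -0.19 to 0.16. Pdk1, the kinase that holds back pyruvate dehydrogenase and so mitochondrial use of pyruvate, stood between 2016 and 3802 normalised counts in mCAT libraries (median 3213) and between 1512 and 3637 in wt libraries (median 3044). It was higher in mCAT in 5 of 6 pairs, but its paired difference was 0.07 (SE 0.121, adjusted p = 0.887). That difference was -0.05 without stem C2_2 and 0.19 without stem C2_1. The lowest value of Pdk1 was in wt 1, which has no partner and does not enter the paired difference.

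Of the oxygen-sensing genes, Hif1a (ENSMUSG00000021109, chromosome 12) stood between 13845 and 28391 normalised counts in mCAT libraries (median 21264) and between 9625 and 24278 in wt libraries (median 18633). The groups overlapped, and mCAT was higher in 5 of 6 pairs, the widest gap being 15901 in mCAT 6 against 9625 in wt 6. Its difference was 0.26 (SE 0.21, adjusted p = 0.885) without pairing and 0.21 (SE 0.0972, adjusted p = 0.537) with it, the unadjusted paired p being 0.0485. Without stem C2_2 the paired difference was 0.11. Egln1, the hydroxylase that marks Hif1a in normal oxygen, was lower in the mCAT partner of 4 stems out of 6, at -0.23 (SE 0.21, adjusted p = 0.892) without pairing. Egln3, the hydroxylase that is itself induced by HIF1, was higher in mCAT in 6 of 6 pairs, by 0.16 (SE 0.0817, adjusted p = 0.57). The gaps were uneven, with 2608 in mCAT against 2605 in wt of C2_1 and 2032 in mCAT against 1646 in wt of C2_4.

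Among the HIF1 targets, P4ha1 had the smallest unpaired p of all members, 0.118. It encodes a subunit of the prolyl hydroxylase that modifies collagen, and stood between 6445 and 11164 normalised counts in mCAT libraries (median 8306) and between 4928 and 8989 in wt libraries (median 8504). Its difference was 0.26 (SE 0.16, adjusted p = 0.878), and 0.05 in the paired fit without stem C2_2. Vegfa stood between 363 and 955 normalised counts in mCAT libraries (median 697) and between 511 and 2543 in wt libraries (median 839), with the highest value in wt 1 and the next in wt 6. It differed by -0.40 (SE 0.28, adjusted p = 0.878), and by -0.02 in the paired fit without stem C2_2.

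Ankrd37, which encodes a small ankyrin-repeat protein, was lower in mCAT in 6 of 6 pairs and stood between 410.3 and 1466 normalised counts in mCAT libraries (median 932) and between 529 and 1765 in wt libraries (median 1049.6). Its paired difference was -0.23 (SE 0.0873, adjusted p = 0.475), with an unadjusted p of 0.0214, and its reads may be shared with Ufsp2 as given above. Ero1a, which forms disulfide bonds in the endoplasmic reticulum, was higher in mCAT in 6 of 6 pairs, by 0.11 (SE 0.0764, adjusted p = 0.651). The mitophagy receptor genes Bnip3 and Bnip3l had paired differences of -0.04 and -0.06, and Mif of -0.13.

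Between the code prefixes the members differed more, and mostly in 1 direction. Of the 32 genes 3 were called between C2 (6 libraries, 3 stems) and C1 (8 libraries, 5 stems) in limma with genotype as a term and the stem as a random block, and all 3 were lower in C2: Ndrg1, Pfkp and Egln3. Of all genes tested 134 (1.11%) were lower and 194 (1.6%) higher in C2. The difference was below 0 for 30 of 32 members, against 51.0% of all genes, and its median was -0.41, against -0.01. An unadjusted p under 0.05 was reached by 16 members, against 17.1% of all genes. The 2 members above 0 were Pfkfb4, at 0.18, and Adm, at 0.14. The members vary together over libraries, so their counts are not those of 32 separate observations.

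The number of calls changed with the stem left out. Without C2_2 no member was called, against 0.132% of all genes called lower in C2, and 5 had an unadjusted p under 0.05, against 9.37% of all genes. The median difference of the members was then -0.21, and 7 were above 0. Without C2_4 again none was called, against 0.231% called lower, and 11 were under 0.05, against 9.07%, with a median of -0.40. Without C2_1, the C2 stem whose libraries lay near the C1 libraries, 14 members were called, all lower in C2, while 4.72% of all genes were called lower. Leaving out C1_1 or C1_2 gave 4 and 3 members called, against 1.68% and 1.52% of all genes called lower. Leaving out C1_3, C1_4 or C1_5 gave 2, 2 and 1, against 0.637%, 0.686% and 0.413%. With stem means as the unit, 3 against 5, limma called 33 genes and no member, and 10 members were under 0.05, against 13.3% of all genes. Within mCAT and within wt libraries it called 81 and 15 genes and no member, with 12 and 6 members under 0.05, against 15.1% and 9.95% of all genes. In all these fits the differences of Ndrg1, Pfkp and Egln3 stayed below 0. Whether C1 and C2 differ in animals, experiments or cells is not stated.

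Ndrg1 (ENSMUSG00000005125, chromosome 15), a gene induced by hypoxia and other stress, was the only member with all C2 libraries below all C1 libraries, which was so for 0.852% of all genes tested. In C2 it stood at 4002 (mCAT 5) and 4332 (wt 5) normalised counts in C2_1, 2454 (mCAT 6) and 2058 (wt 6) in C2_2, and 2760.1 (mCAT 7) and 2141 (wt 7) in C2_4. In C1 it ran from 4832 (mCAT 1) over a median of 5782 to 10333 (mCAT 4). The gap between the highest C2 and the lowest C1 value was small beside the range within C1. Ndrg1 fell by 1.16 on the log2 scale in C2 (SE 0.21, adjusted p = 0.00591), a level of 0.448 times that of C1. Its difference was -0.998 (adjusted p = 0.114) without C2_2 and -1.05 (adjusted p = 0.0885) without C2_4. With stem means as the unit in limma it was -1.17 (adjusted p = 0.11).

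Pfkp (ENSMUSG00000021196, chromosome 13) had the widest range of all members over the libraries, 2.85 on the log2 scale. In C2 it stood at 10084 (mCAT 5) and 13419 (wt 5) normalised counts in C2_1, 4388 (mCAT 6) and 4243 (wt 6) in C2_2, and 8087 (mCAT 7) and 5872 (wt 7) in C2_4. In C1 it ran from 10583 (mCAT 1) over a median of 18407 to 31335 (wt 1). Of C2_1, wt 5 lay among the C1 libraries and mCAT 5 just below them, and the libraries of C2_2 were lowest. Pfkp fell by 1.38 on the log2 scale in C2 (SE 0.29, adjusted p = 0.0137), and its difference was -1.23 (adjusted p = 0.0208) without wt 1. It was -1.04 (adjusted p = 0.211) without C2_2, -1.37 (adjusted p = 0.105) without C2_4 and -1.30 (adjusted p = 0.067) without C1_5. In limma on stem means it was -1.43 (adjusted p = 0.133).

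Egln3 (ENSMUSG00000035105, chromosome 12) also had C2_2 and C2_4 as its lowest stems. In C2 it stood at 2608 (mCAT 5) and 2605 (wt 5) normalised counts in C2_1, 1060.4 (mCAT 6) and 1003 (wt 6) in C2_2, and 2032 (mCAT 7) and 1646 (wt 7) in C2_4. In C1 it ran from 2189 (wt 2) over a median of 3335 to 5522 (mCAT 4). Again C2_1 lay within the C1 range. Egln3 fell by 0.97 on the log2 scale in C2 (SE 0.24, adjusted p = 0.0338), and its adjusted p was above 0.05 when any of the stems C2_2, C2_4, C1_3, C1_4 or C1_5 was left out (0.0609 to 0.358). Its difference was then -0.64 without C2_2, -1.01 without C2_4, -1.04 without C1_3, -0.97 without C1_4 and -0.81 without C1_5. Limma on stem means gave -0.98 (adjusted p = 0.207).

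**Figure D4:**
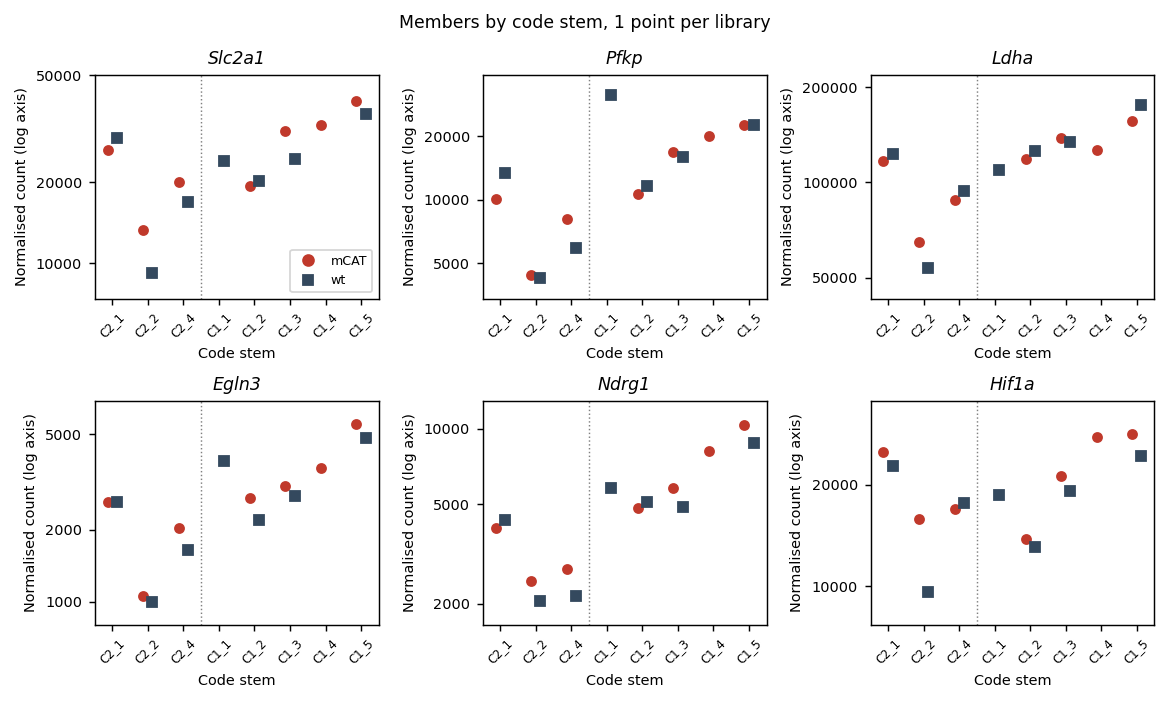
Normalised count (log axis) of 6 genes in each library by code stem, with mCAT as circles, wt as squares and C2 left of the dotted line. In each panel wt 6 (C2_2) is the lowest point and the C1_5 libraries are near the top, partners of most stems lie close together, and the mean of C2_1 lies among the C1 stems except for Ndrg1.

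**Figure D5:**
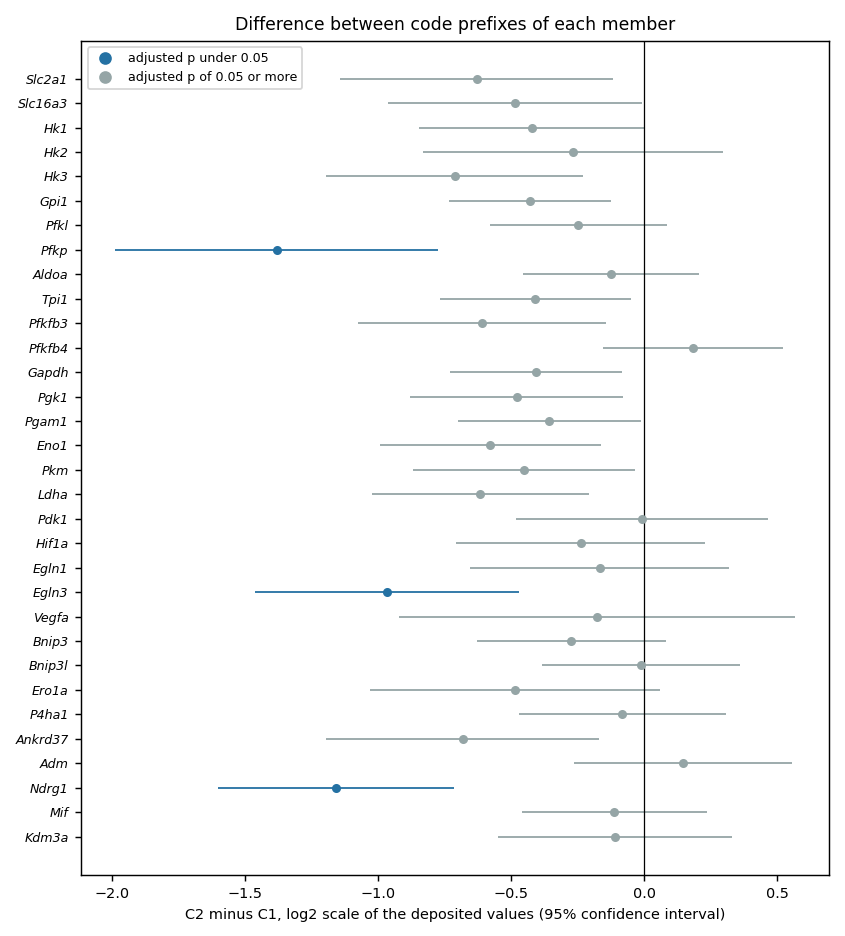
Difference of C2 minus C1 for each gene on the log2 scale with its 95% confidence interval, from a fit with genotype as a term and the code stem as a random block. Ndrg1, Pfkp and Egln3 (blue) passed the adjusted threshold, and 30 of the 32 points lie below 0.

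Neither carrier passed the test between prefixes. Slc2a1 stood between 9218 and 29349 normalised counts in C2 libraries (median 18431) and between 19361 and 40312 in C1 libraries (median 27638). The 2 C2_1 libraries lay inside the C1 range, and 3 of the 4 other C2 libraries lay below it. Its difference was -0.63 (SE 0.24, adjusted p = 0.184), and that of Slc16a3 -0.48 (SE 0.23, adjusted p = 0.286). Without C2_2 these were -0.29 and -0.19.

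All 8 upper glycolytic enzymes had differences below 0, with 1 called, Pfkp, and a median of -0.42. Hk3, the most abundant hexokinase per kilobase, stood between 6049 and 17342 normalised counts in C2 libraries (median 10006) and between 13892 and 22995 in C1 libraries (median 15795), a difference of -0.71 (SE 0.23, adjusted p = 0.109). Gpi1, which isomerises glucose 6-phosphate, stood between 21516 and 35949.9 normalised counts in C2 libraries (median 31621) and between 34510.5 and 44102 in C1 libraries (median 39853), a difference of -0.43 (SE 0.15, adjusted p = 0.127). In both genes the groups overlapped, in Hk3 through C2_1. Without C2_2 the differences were -0.50 for Hk3 and -0.25 for Gpi1. Hk2, the inducible hexokinase, was at -0.27 (SE 0.27, adjusted p = 0.675) and Aldoa at -0.12 (SE 0.16, adjusted p = 0.76). Without C2_2 Aldoa was at 0.07.

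Per kilobase, Pfkp stood at 0.232 times Pfkl in C2_2, 0.352 in C2_4 and 0.561 in C2_1 (means of 2 libraries), against 0.542 in C1_2 and 0.588 in C1_3 at the low end of C1. In C1_4, C1_5 and C1_1 the ratio was 0.821, 0.977 and 1.46. Pfkp thus varied more between stems than Pfkl, while both had C2_2 as the lowest and C2_4 as the second lowest stem. Pfkl itself was at -0.25 (SE 0.16, adjusted p = 0.466). The 2 enzymes that set fructose 2,6-bisphosphate, an activator of phosphofructokinase, had differences of opposite sign with all stems in, neither called. Pfkfb3 was at -0.61 (SE 0.22, adjusted p = 0.155) and Pfkfb4 at 0.18 (SE 0.16, adjusted p = 0.629). Without C2_1 they were at -0.67 and -0.03, so the opposite sign depended on that stem. Per kilobase Pfkfb3 stood at 1.23 ± 0.34 times Pfkfb4 in C2 and 2.16 ± 0.775 times in C1 (mean ± SD, n = 6 and 8), with 3.64 in wt 1.

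The 6 lower enzymes lay between -0.36 and -0.62, each with an unadjusted p under 0.05 and none called. Ldha came closest. It stood between 53669.8 and 122757 normalised counts in C2 libraries (median 90946) and between 109147 and 175505 in C1 libraries (median 130215), a difference of -0.62 (SE 0.19, adjusted p = 0.102) with an interval of -1.02 to -0.21, and -0.34 without C2_2. The 4 libraries of C2_2 and C2_4 lay below all others, while the C2_1 values of 116558 in mCAT and 122757 in wt lay inside the C1 range. Eno1 was at -0.58 (SE 0.20, adjusted p = 0.129), Pgk1 at -0.48 (SE 0.19, adjusted p = 0.196), Pkm at -0.45 (SE 0.20, adjusted p = 0.249) and Gapdh at -0.41 (SE 0.15, adjusted p = 0.173). Without C2_1, Gapdh, Pgk1, Eno1, Pkm and Ldha were called, and Pgam1, the phosphoglycerate mutase gene, was called without wt 1 (-0.48, adjusted p = 0.0449). Without C2_2 none of these was called. The differences were then smaller, at -0.26 for Gapdh, -0.20 for Pgk1, -0.31 for Eno1, -0.23 for Pkm and -0.24 for Pgam1.

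Pdk1, which restrains the mitochondrial use of pyruvate, had a difference near 0. It stood between 2016 and 3692 normalised counts in C2 libraries (median 3165) and between 1512 and 3802 in C1 libraries (median 3183), a difference of -0.01 (SE 0.22, adjusted p = 0.994). Its lowest library was wt 1 and its second lowest stem C2_1, and C2_4 was its second highest stem. Hif1a itself, at -0.24 (SE 0.22, adjusted p = 0.65), had 15901 (mCAT 6) and 9625 (wt 6) in C2_2. Its mean was nearly as low in C1_2, with 13845 (mCAT 1) and 13079 (wt 2). Egln1 was at -0.17 (SE 0.23, adjusted p = 0.781). Without C2_2 Hif1a was at -0.00 and Egln1 at 0.11.

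Of the 10 HIF1 targets 9 were below 0, with a median of -0.14, and they differed widely in size. Besides Ndrg1, only Ankrd37 had an unadjusted p under 0.05. It stood between 410.3 and 1328 normalised counts in C2 libraries (median 564) and between 658 and 1765 in C1 libraries (median 1181), a difference of -0.68 (SE 0.24, adjusted p = 0.146). Ero1a was at -0.49 (SE 0.26, adjusted p = 0.357). Without C2_2 Ankrd37 was at -0.45 and Ero1a at -0.13. Close to 0 were Bnip3l (-0.01), P4ha1 (-0.08), Kdm3a, a histone demethylase gene (-0.11), and Mif (-0.11). Bnip3l and Bnip3 ran apart over the stems. Per kilobase Bnip3l stood at 0.567 times Bnip3 in C2_2, 0.45 in C2_4 and 0.28 in C2_1, against 0.27 to 0.326 in 4 C1 stems and 0.624 in C1_2.

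Library wt 1, the only one of its stem, was above the mean for 18 members and below it for 14. It had the highest level of 8 members and the lowest of 2, against 19.7% and 21.4% of all genes tested. The 8 are thus near the share of all genes, and the 2 are below it. It was high for Hk2 (7799.5 normalised counts), Pfkp (31335), Pfkfb3 (7169), Vegfa (2543) and Kdm3a (1928), while Pdk1 (1512) and Bnip3l (5757) were at their lowest there. Its 14 glycolytic enzymes together took 2.65% of all normalised counts, inside the range of the other C1 libraries. The markers of that library included 13969 normalised counts of 4 hemoglobin and erythroid genes in sum and 756 of the T cell markers, both the highest of all libraries, and their part in these values was not tested.

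The genotype difference was not shown to depend on the prefix. For the difference in C2 minus that in C1, limma called 0 of 12096 genes (0.0%), with 339 genes and 0 members at an unadjusted p under 0.05. The members ran from -0.21 (Bnip3l) to 0.31 (Hk1), and the smallest unadjusted p was 0.236, that of Hk1.

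Between genotypes no marker was called without pairing, and only Ccr2 in the paired fit (lower in mCAT, adjusted p = 0.00563). Of all genes tested 0.198% and 0.314% were called in these 2 fits. The mCAT donors carry the recombinase at 1 Ccr2 allele, so an effect of that allele and of cell state cannot be told apart. The sum of the T cell markers was higher in mCAT in 0 of 6 pairs, against 1 (B cell) to 4 (microglia) in the other lists. Markers of cell state and of other cells moved with the prefix, and their part in the differences was not tested. Of 9 macrophage markers 4 were higher in C2 (Lyz2, C1qa, C1qb and C1qc), against 1.6% of all genes tested. The sum of the list was 1729028 to 4590181 normalised counts in C2 and 852250.5 to 1492062 in C1, without overlap. Most of this sum was Lyz2 alone, at 1413870 to 4197780 in C2 and 633465 to 1237730 in C1. In the libraries of C2_2 and C2_4 Lyz2 took 5.88% to 9.68% of all normalised counts, against 1.70% to 3.80% in the other 10. Of 6 microglia markers tested 2 were higher in C2 (Gpr34 and Olfml3), against the same 1.6% of all genes. The sum of that list was 40012 to 81931 in C2 and 17918 to 44533 in C1.

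Of 5 neutrophil markers tested Cxcr2 was lower in C2, against 1.11% of all genes tested. The list summed to 5932 to 8933 in C2 and 7109.6 to 13186 in C1, and Cxcr2, Retnlg, Mpo and Ngp were at 0 in at least 1 library. No marker of T cells, B cells, endothelial cells, erythroid cells or neural cells was called between the prefixes. Their sums were 123 to 527 (T cell), 206 to 725 (B cell), 1148 to 2661 (endothelial), 1364 to 7569.8 (erythroid) and 1467 to 3925 (neural) in C2. In C1 they were 135 to 756, 56.7 to 523, 2196 to 4695, 361 to 13969 and 1467 to 5773, so each pair of ranges overlapped. Among these markers, Ms4a1, Cdh5 and Mog were at 0 in at least 1 library.

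Further genes of the same pathways were read for comparison. Of 26 tested glycolysis genes outside the 32, none was called between genotypes in either fit. Between prefixes Ldhb alone was called, against 2.71% of all genes tested. It encodes the heart-type lactate dehydrogenase subunit, which is known to favour pyruvate. Ldhb stood between 1941 and 6598 normalised counts in C2 libraries (median 4807) and between 694 and 1891 in C1 libraries (median 1245). The prefixes did not overlap, which was so for 2.25% of all genes tested. Ldhb rose by 1.67 on the log2 scale in C2 (SE 0.27, adjusted p = 0.00259), while Ldha was at -0.62. The next of that list by p was Slc16a1, another monocarboxylate carrier gene, at -0.68 (adjusted p = 0.114). The median of the list was 0.07 between prefixes and 11 of 26 were below 0.

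Of 36 tested hypoxia genes outside the 32, 1 was called between genotypes in both fits and 5 between prefixes. Of all genes tested 0.198% and 0.314% were called between genotypes without and with pairing, and 2.71% between prefixes. Cxcr4, a chemokine receptor gene on chromosome 1, which also carries the CD45 gene, stood between 224 and 1238 normalised counts in mCAT libraries (median 561) and between 1183 and 4658 in wt libraries (median 1924), a difference of -1.72 (SE 0.32, adjusted p = 0.0323). Between prefixes Cxcr4 (1.08, adjusted p = 0.0066) and the transcriptional repressor gene Bhlhe41 (1.60, adjusted p = 0.0153) were higher in C2. Lower in C2 were the endothelin gene Edn1, the inducible nitric oxide synthase gene Nos2 and the annexin gene Anxa2.

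Edn1 stood between 67.1 and 279 normalised counts in C2 libraries (median 117) and between 738 and 3272 in C1 libraries (median 1571), and it fell by 2.71 on the log2 scale in C2 (SE 0.34, adjusted p = 0.000264). Nos2, which makes nitric oxide in inflammatory macrophages, stood between 1091 and 6182 normalised counts in C2 libraries (median 2402) and between 8516 and 23021 in C1 libraries (median 10829.7), and it fell by 2.08 (SE 0.33, adjusted p = 0.00197). In both genes the prefixes did not overlap. Anxa2 was at -0.76 (adjusted p = 0.047), and the median of this list was -0.17, with 25 of 36 below 0. None of 22 tested regulators of HIF was called in any of these fits, the smallest p between prefixes being those of the transcription factor gene Stat3 (-0.53, adjusted p = 0.0592) and the third prolyl hydroxylase gene Egln2 (-0.44, adjusted p = 0.0782).

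As a description over the 14 libraries, which share stems, the genes outside the 32 most like Hif1a in Pearson correlation of deposited values were Runx1t1 (r = 0.926, near the lowest measurable level at 11.6 normalised counts on average), Sting1 (0.918), which encodes an adaptor of the response to cytosolic DNA, and Acod1 (0.901), which encodes the enzyme that makes itaconate. Most like Slc2a1 were Gbp3 (r = 0.979), Spint1 (0.978) and Gbp2 (0.960). Gbp2 and Gbp3 encode interferon-induced guanylate-binding proteins, and Spint1 a protease inhibitor.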

How the data were processed

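RNA of sorted macrophages was made into Smart-seq2 libraries from polyadenylated RNA, without strand, and sequenced as paired-end reads, per the labels' protocols. FastQC, fastp, Salmon and the build GRCm39 are named in the submitters' processing notes, with no version, annotation or filter stated. The table deposited by the authors carries a title that says raw counts, yet it holds log2-scale values: none is whole, and the lowest, 5.9641, occurs in every library. This form is that of variance-stabilised counts, and undoing the transformation gave the normalised counts used here, where 57.81% to 75.48% of the low ones were within 0.15 of whole reads, so whole reads were not recovered and depth is approximate. All 14 columns of values had a sample.

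Genes with a normalised count of at least 10 in at least 7 libraries were tested with limma 3.58.1 in R 4.3.3 (trend and robust moderation with statmod 1.5.0) on the deposited values, with 2-sided p-values adjusted over all 12096 genes by the Benjamini-Hochberg method and a threshold of 0.05. Differences are mCAT minus wt or C2 minus C1. The prefix fit had genotype as a term and the stem as a random block (consensus correlation 0.463). This correlation is common to all genes. The members varied more between stems, relative to partners, than all genes did, so their p-values between prefixes may be too small. Stems were taken to pair libraries because partners deviated together in all 6 pairs (r of 0.232 to 0.659), though a shared prefix also adds to this r. Title numbers 4 to 7 join the same partners as the stems. Title numbers 1 to 3 join other libraries, with r of -0.294, 0.158 and 0.252, and since not every r was over 0.1 pairing by title was only an alternative. The labels do not say that libraries are separate animals, so p-values measure only the spread between these libraries, which may be technical. The fits were also run on simulated data in which genes varied independently and stem effects were smaller than the remaining spread. The members differ from this, so that run does not measure the error of their calls. Transcript lengths (longest basic protein-coding transcript), overlaps and copies came from GENCODE M21 on GRCm38, and promoters from RefSeq.

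The members and the other gene lists were chosen with earlier results of these data known. Some marker results are not reported here. Genes named with values were those called, the 6 members with the smallest p for genotype and for prefix, the 4 most abundant per kilobase, the 4 with the widest range, and others to describe each role. Of each further pathway list those called and the 2 with the smallest p for prefix were named, and 3 genes most like Hif1a and like Slc2a1.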

Additional observations from a re-analysis of the deposited data

Results flagged for a closer look

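Of 64 groups examined (32 genes in 7 mCAT and 7 wt libraries each), 5 had a library whose gap to its nearest neighbour, as a share of the range, passed Dixon's 95% critical value, and chance gives about 1 in 20 groups. All 5 were wt groups. Hk2 was 7799.5 normalised counts in wt 1, against 2014 to 3879 in the other wt libraries. Vegfa was 2543 in wt 1, against 511 to 1141. Kdm3a was 1928 in wt 1, against 831 to 1288. Gpi1 was 21516 in wt 6, against 34386 to 44102. Pfkfb4 was 2241 in wt 5, against 1248 to 1528, and its mCAT partner of the same stem, mCAT 5, stood at 2324.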

How the results depend on the processing

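No member was called between genotypes under any alternative run. Among all genes, the 24 calls became 38 with the stem as a replicate block, 9 within C2 and 15 within C1 libraries, and 18 to 25 when 1 library was left out. With the block and 1 stem left out (chosen after seeing the data) they were 28 to 38. The pairing by stem changed no call of a member; the block by title number gave 25 calls (title numbers 4 to 7 join the same partners as the stems, and 1 to 3 do not). Of 991 single-gene genotype values under alternatives none was called, 986 stayed within 1 SE of the reported value and 5 moved further; 83 values, in 20 members, changed sign, the largest reported difference among them being 0.19.

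Between prefixes, the 3 members called became 0 with stem means, within mCAT and within wt libraries, and 0 to 14 when 1 stem was left out; the 328 calls among all genes became 33, 81 and 15, and 55 to 1170. The differences over all alternatives were -1.42 to -0.998 for Ndrg1, -1.74 to -1.04 for Pfkp and -1.26 to -0.64 for Egln3, and the cause of the lost calls was not tested. The pseudocount, filter, centring and moderation alternatives kept all 3 members called. The interaction called 0 genes on each of 3 scales. With 3 stems in C2 and 8 in all, the number of calls depends on single stems. Depth is approximate, and Adm is too low for small differences to be seen.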
